A study of Homo sapiens with 6 samples.

Results

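The enzymes that place or remove methyl groups on histone lysines were followed in RNA-seq of MDA-MB-231 cells, a mesenchymal triple-negative breast cancer (TNBC) line, after knockdown of the long non-coding RNA MIR100HG. They comprise 52 of the 27745 genes in the count table, chosen by gene symbol with earlier results of these data known. The choice takes in the KMT2 and KMT5, SETD, SETDB, NSD, SMYD, EZH, EHMT and SUV39H methyltransferase families, DOT1L and ASH1L. It also takes in the EED and SUZ12 subunits of Polycomb repressive complex 2 (PRC2). The numbered KDM demethylases with no letter or a letter from A to C complete it, apart from one gene that the choice leaves out. The 6 libraries fall into 3 groups of 2. Cells infected with pLKO.1 lentivirus carrying the sh-TRC hairpin are the control, and cells infected with lentivirus carrying sh-MIR100HG-1 or sh-MIR100HG-2, short hairpin RNAs (shRNAs) against different sites of the transcript, are the knockdown groups. All 6 libraries are total RNA of infected cells of this 1 line, and uninfected cells were not measured. The study's methods give 72 h from infection to collection for its knockdown experiments. The study's legend calls the libraries of each hairpin biological replicates, and neither legend nor labels say whether they came from separate infections, so the p-values measure only the spread between these libraries.

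Methylation of histone lysines is read by position and by degree. Methyl groups on H3K4, H3K36 and H3K79 mark promoters, enhancers and transcribed bodies of active genes. Those on H3K9 and H3K27, and trimethylation of H4K20, mark silent or compacted chromatin. Most of the methyltransferases share a catalytic SET domain, and DOT1L is the exception with a fold of its own. The marks are removed by the flavin-dependent LSD enzymes and by the JmjC family, which needs iron and 2-oxoglutarate. In breast cancer the PRC2 enzyme EZH2 is the best known member, since its level follows cell proliferation.

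The sequences of the hairpins are shown because the whole comparison rests on them and because each can be searched for in the members' own transcripts. The target of sh-MIR100HG-1 lies at chr11:121962132-121962152 and that of sh-MIR100HG-2 at chr11:121961961-121961981 (GRCh37, minus strand). Each matched the genome at 1 place only, and both matched the exonic sequence of MIR100HG over all 21 bases. The target sites and the guide strands made from them are given 5′ to 3′, with guide bases 2 to 8, the seed, in capitals.
sh-MIR100HG-1 target: ttcctctgtttgtacttaaat
sh-MIR100HG-1 guide: aUUUAAGUacaaacagaggaa
sh-MIR100HG-2 target: gagagtgacctacagaataaa
sh-MIR100HG-2 guide: uUUAUUCUguaggucacucuc

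No member carried a match to either target beyond 12 of the 21 bases. The longest match was in KMT2C for sh-MIR100HG-1 and in KDM6A for sh-MIR100HG-2. Matches of that length or more occurred in 98 of 15237 tested genes with a transcript sequence (0.643%) for the former and in 56 (0.368%) for the latter. A site for the 7-base seed was commoner. It stood in a transcript of 29 of 51 members (56.9%) for sh-MIR100HG-1 and of 36 (70.6%) for sh-MIR100HG-2, against 34.5% and 38.2% of all genes with a transcript, and the members' merged exons are long, with a median of 7312 bases.

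Each library held 43804736 to 64588388 counts in total. MIR100HG itself was at 41.9 and 58.5 CPM, the usual count scaled to sequencing depth (here the TMM-adjusted library size), in the sh-TRC libraries, at 15.2 and 13.2 CPM in the sh-MIR100HG-1 libraries and at 16.6 and 10.4 CPM in the sh-MIR100HG-2 libraries. All 4 knockdown libraries therefore lay below both controls. The fitted log2FC, the base 2 logarithm of the ratio of knockdown to control, was -1.86 (SE 0.25), and the adjusted p over 15372 genes was 0.381 (edgeR's quasi-likelihood test, Benjamini-Hochberg adjustment). The mesenchymal markers VIM, CD44, AXL, CAV1 and FN1 were between 356 and 2095 CPM in every library, whereas the hormone receptor genes ESR1 and PGR stayed at or below 2.79 CPM. The leukocyte and endothelial markers PTPRC, CD3E and CDH5 stayed at or below 0.689 CPM, and CD68, which tumour lines also express, was at 163 to 254 CPM.

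Of the 52 members, 51 passed the filter on low counts. The exception was SMYD1, a muscle methyltransferase, which had 0 counts in all 6 libraries. A count of 0 allows up to 3 counts per library, which is at most 0.0708 CPM, and this limit covers counting error only. The members were well covered otherwise, with a median of 3419 counts per gene and library and a lowest value of 43 counts.

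Per kilobase of exon, the members were expressed above the typical gene in the control cells. Their median level was 7.27 CPM per kb against 4.06 CPM per kb for all 15372 genes tested, and 37 of 51 members lay above the latter. The 5 highest were KDM5C, an X-linked demethylase of H3K4, at 38.6 CPM per kb, KDM2A, a demethylase of H3K36 that binds CpG islands, at 21.6, the H3K9 demethylase KDM3B at 17.7, the H3K36 methyltransferase NSD2 at 16.99 and EZH2 at 16.2 CPM per kb. SETD5 stood next to EZH2 at 16.2 CPM per kb, and the control libraries do not separate the 2 genes. After SMYD1 the lowest were KDM4C, an H3K9 and H3K36 demethylase, at 0.307 CPM per kb, the JmjC protein KDM8 at 0.856, SETD4 at 1.10 and SETDB2 at 1.17 CPM per kb. Each of the 7 role groups had a median between 4.60 (H3K9 methyltransferases) and 9.97 CPM per kb (PRC2 core).

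**Figure D1:**
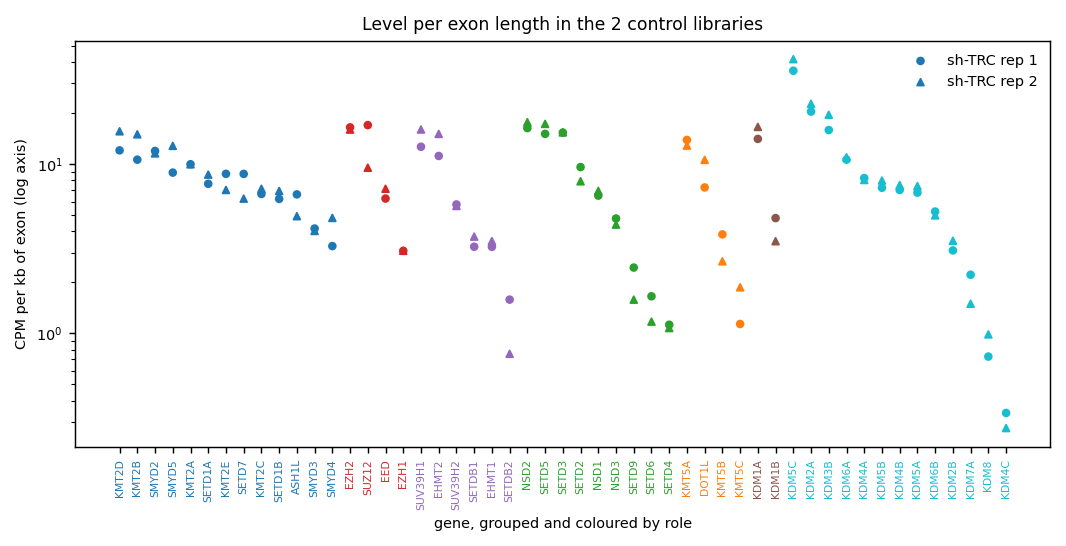
Level of each of the 51 members that passed the filter in the 2 sh-TRC libraries, as CPM per kilobase of exon on a log axis. Circles are replicate 1 and triangles replicate 2, and genes are grouped and coloured by role. KDM5C (38.6 CPM per kb on average) stands highest and KDM4C (0.307) lowest.

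Taking both hairpins together against the control, the members leaned towards higher levels by a small amount, and no single gene passed the adjusted threshold. DOT1L, KMT5C, SETD5, NSD2 and KDM5B had the 5 smallest p-values, all with higher fitted values after knockdown. By the quasi-likelihood test of edgeR, Benjamini-Hochberg adjusted, 0 of 51 members had an adjusted p at or below 0.05, as did 0 of all 15372 genes (0%), and the smallest adjusted p of a member was 0.447, for DOT1L. Only DOT1L among the members was called by DESeq2 (adjusted p = 0.0301), and over all alternative fits the adjusted p of DOT1L ranged from 0.0205 to 0.983. The share of all genes that DESeq2 called at the adjusted threshold is not given here, so its call of DOT1L has no background beside it. At an unadjusted p under 0.05, 5 members (9.80%) were higher, where 3.23% of all genes were, and 0 members were lower, where 4.44% of all genes were. All 4 knockdown libraries lay above both controls for 11 members (21.6%; background 8.40%) and below both for 0 members (background 9.08%). Whichever library was left out, DOT1L and SETD5 stayed at an unadjusted p under 0.05. KMT5C did so except without sh-TRC replicate 1, KDM5B only without replicate 1 of either hairpin, and NSD2 in no such fit. The 11 without overlap were DOT1L, KMT5C, SETD5, NSD2, KDM5B, NSD3, SETD3, SETD4, KMT2C, EHMT1 and KDM4A.

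The lean was wide but shallow. The fitted log2FC was above 0 for 42 members and below 0 for 9, where 7017 of all 15372 genes were above 0 and 8355 below. The median was 0.15 against -0.04 for all genes tested. For 32 members it lay within 0.25 of 0, and the median SE of a member was 0.21. Above 0.5 stood KMT5C, DOT1L, KDM7A, SETD5 and KDM5B, and below -0.5 stood KDM8 and KDM1B. The members together took 0.430% and 0.434% of all counts in the sh-TRC libraries, 0.496% and 0.479% in the sh-MIR100HG-1 libraries, and 0.494% and 0.475% in the sh-MIR100HG-2 libraries. This summed share was thus higher in each knockdown library than in either control. An exact permutation test of 4 against 2 libraries cannot give a p below 0.0667, so no single value could reach 0.05 that way. Longer genes had the higher values: across the 51 members the Spearman correlation of log2FC with exon length was 0.41, against 0.09 across all genes, as a description over genes that share the same libraries.

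**Figure D2:**
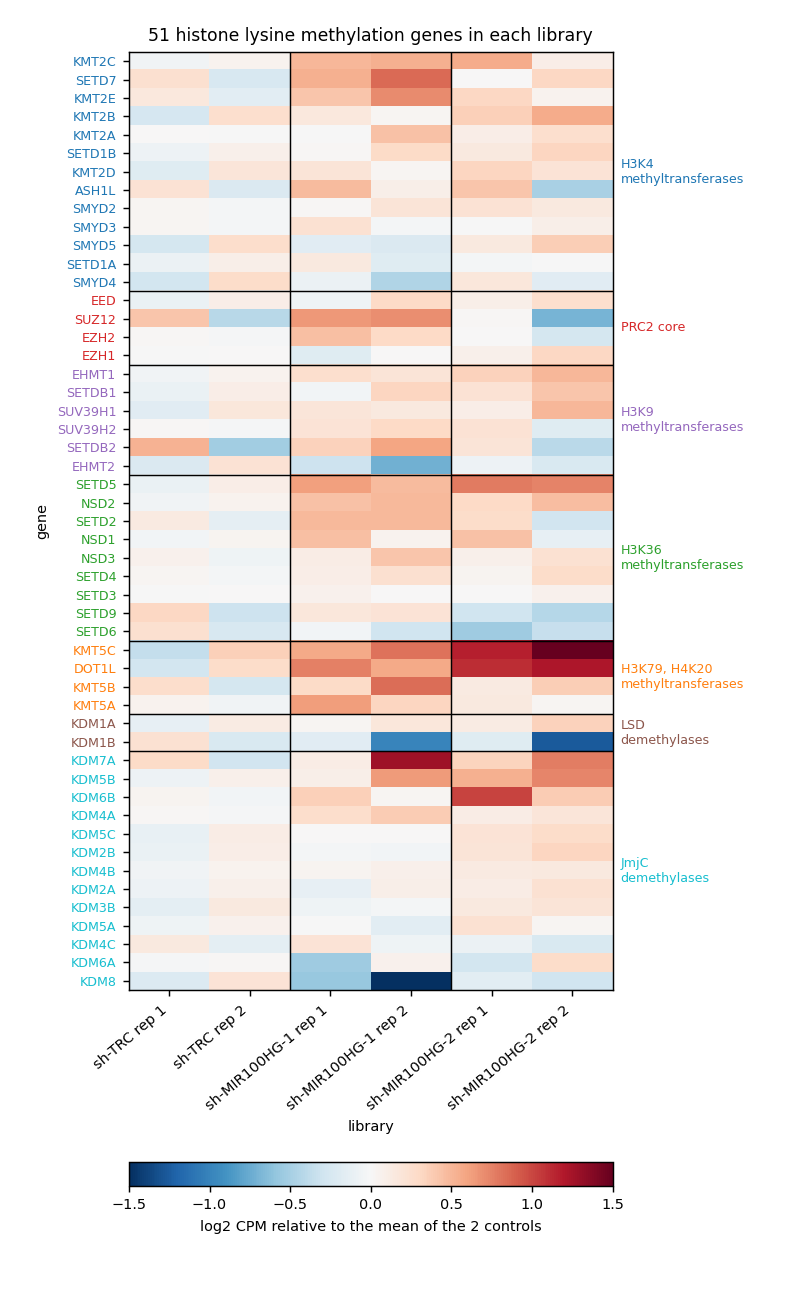
Heat map of the 51 members in the 6 libraries, as log2 CPM minus the mean of the 2 sh-TRC libraries, grouped by role and ordered by log2FC within a role. The colours run from -1.5 (blue) to 1.5 (red) and saturate beyond that, and the KMT5C, DOT1L and SETD5 rows are red in all 4 knockdown libraries.

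The hairpins share their control libraries, so their comparisons with control are not independent of each other and are given side by side. With sh-MIR100HG-1, 6 members were higher at an unadjusted p under 0.05 (DOT1L, KMT2C, KMT2E, NSD2, SETD5 and SETD7; background 3.10%) and 0 were lower (background 3.77%). With sh-MIR100HG-2, 5 members were higher (DOT1L, KDM5B, KDM6B, KMT5C and SETD5; background 3.71%) and 0 were lower (background 5.15%). No member and no other gene was called at the adjusted threshold by edgeR's quasi-likelihood test for either hairpin (background 0%). For sh-MIR100HG-2 DESeq2 called 3 members, namely DOT1L, KMT5C and SETD5. The share of all genes that DESeq2 called is not given here, so those 3 calls have no background beside them. The median log2FC of the members was 0.16 with sh-MIR100HG-1, against -0.004 for all genes, and 0.17 with sh-MIR100HG-2, against -0.04. With sh-MIR100HG-1 38 of 51 members had fitted values above 0, where 7639 of all 15372 genes did. With sh-MIR100HG-2 40 members did, where 7046 of all genes did. Both hairpins had fitted values above 0 for 33 members and below 0 for 6, and for the remaining 12 the signs were opposite. The share of all genes with the same sign for both hairpins is not given here, so these last counts have no background beside them.

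**Figure D3:**
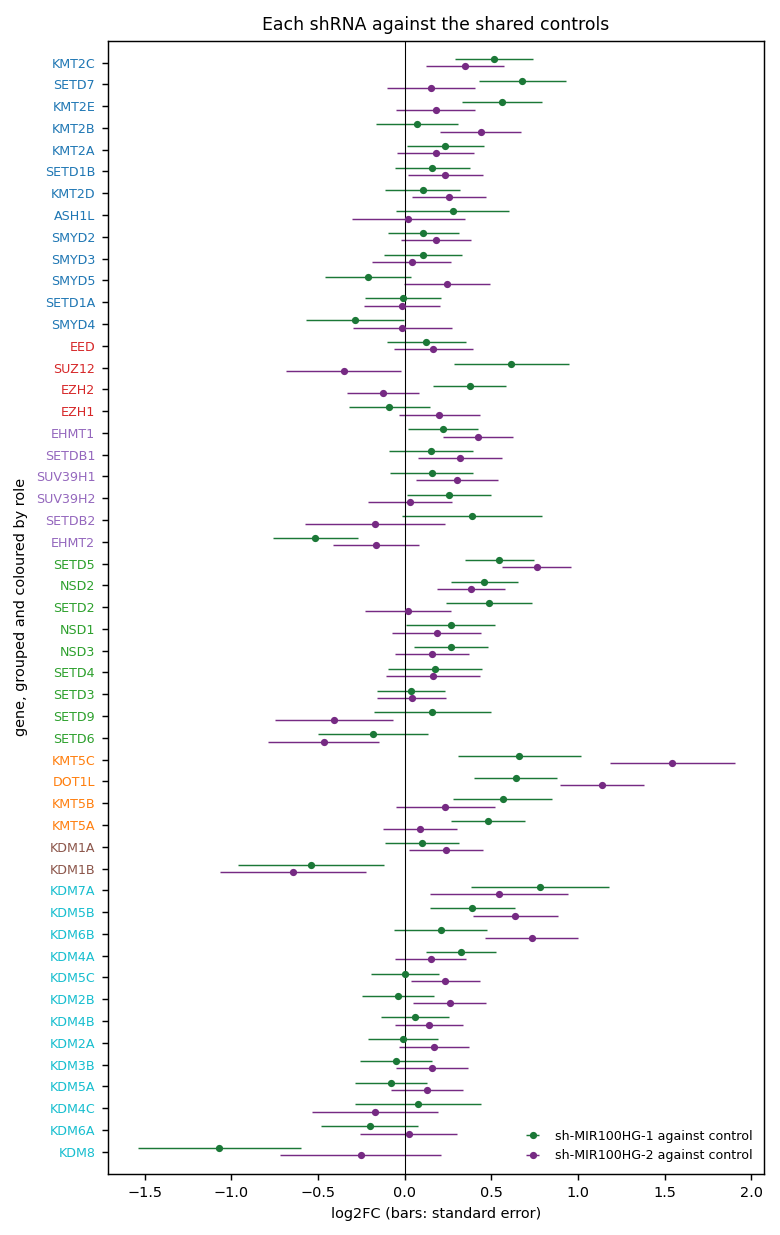
log2FC of each hairpin against the shared sh-TRC controls for the 51 members, with standard errors as bars, grouped and coloured by role. Both points lie right of 0 for 33 genes, and the widest gaps between the hairpins are those of SUZ12, KMT5C and KDM8, the last at few counts.

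The group of DOT1L and the H4K20 enzymes held the largest values. DOT1L is the sole known H3K79 methyltransferase and works at transcribed genes. It was at 82.0 and 119 CPM in the sh-TRC libraries, at 167 and 147 CPM in the sh-MIR100HG-1 libraries and at 213 and 229.7 CPM in the sh-MIR100HG-2 libraries. The 3 groups did not overlap, and sh-MIR100HG-2 stood highest. The log2FC was 0.89 (SE 0.22) over both hairpins, with an unadjusted p of 0.00304, and 0.64 (SE 0.24) and 1.14 (SE 0.24) for sh-MIR100HG-1 and sh-MIR100HG-2. Without sh-TRC replicate 1 it was 0.64 and without sh-TRC replicate 2 it was 1.18. DOT1L is drawn in the study's heat map of genes selected on these same libraries, so its direction is not independent evidence. Its exons overlap 529 bases of PLEKHJ1 on the opposite strand, and the strand setting of the counting is not given in the sources used here. PLEKHJ1 had a log2FC of 0.39 (unadjusted p = 0.0739, edgeR).

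KMT5C, which adds the methyl groups that make H4K20 di- and trimethylated in heterochromatin, was at 5.42 and 8.92 CPM in the sh-TRC libraries, at 10.4 and 12.3 CPM in the sh-MIR100HG-1 libraries and at 15.8 and 26.0 CPM in the sh-MIR100HG-2 libraries. Again the 3 groups did not overlap, though the replicates of sh-TRC and sh-MIR100HG-2 lay far apart. Its log2FC of 1.10 (SE 0.32) was the largest of all members (unadjusted p = 0.00816, adjusted p = 0.503, edgeR's quasi-likelihood test). The log2FC was 0.66 (SE 0.35) with sh-MIR100HG-1 and 1.54 (SE 0.36) with sh-MIR100HG-2. KMT5B, its close relative, had a log2FC of 0.40 (SE 0.25) and KMT5A, which places the first methyl group on H4K20 and is needed in the cell cycle, one of 0.28 (SE 0.19). All 4 genes of the group had fitted values above 0, where 7017 of all 15372 genes did, with a median of 0.64.

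**Figure D4:**
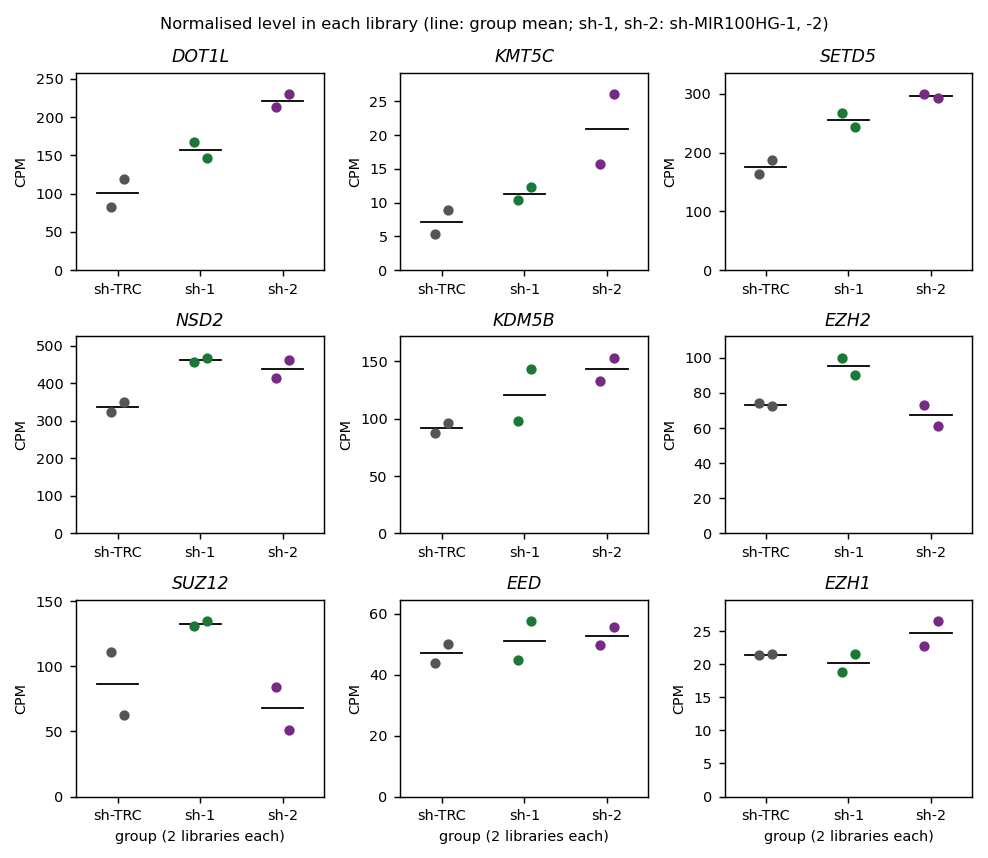
CPM of 9 members in each of the 6 libraries (points) with the mean of each group (lines), on axes that start at 0. DOT1L and KMT5C step up from sh-TRC to sh-MIR100HG-1 and again to sh-MIR100HG-2 without overlap, whereas EZH2 and SUZ12 are highest with sh-MIR100HG-1.

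The H3K36 group takes in the NSD enzymes and SETD2, which methylate H3K36, together with SETD proteins whose substrates are other proteins or not settled. Among its 9 genes 7 had fitted values above 0, where 7017 of all 15372 genes did. At an unadjusted p under 0.05, 2 were higher (background 3.23%) and 0 were lower (background 4.44%). SETD5, a SET-domain protein whose own methyltransferase activity is debated, was at 163 and 187 CPM in the sh-TRC libraries, at 267 and 243 CPM with sh-MIR100HG-1 and at 299 and 293 CPM with sh-MIR100HG-2. The groups did not overlap, and the replicates lay close together. The log2FC was 0.65 (SE 0.18, unadjusted p = 0.00568, adjusted p = 0.476 in edgeR's quasi-likelihood test), with 0.55 and 0.76 for the first and the second hairpin. It lay between 0.56 and 0.75 whichever library was left out.

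NSD2, which dimethylates H3K36 and is a known driver of myeloma, was at 323 and 349 CPM in the sh-TRC libraries, at 456 and 469 CPM with sh-MIR100HG-1 and at 413 and 463 CPM with sh-MIR100HG-2. The knockdown libraries all lay above the controls and the hairpins overlapped each other. The log2FC was 0.42 (SE 0.17, unadjusted p = 0.0379, edgeR), with 0.46 and 0.38 for the 2 hairpins. Its relatives NSD1 and NSD3 had log2FC values of 0.22 and 0.21, and SETD2, the enzyme that trimethylates H3K36 behind RNA polymerase II, one of 0.25. SETD3, an actin histidine methyltransferase, and SETD4 were at 0.04 and 0.17, and SETD9 and SETD6 were at -0.12 and -0.33. SETD6, which methylates the NF-kappaB subunit RelA, shares 1086 bases of exon with CNOT1 on the opposite strand. The median of the group was 0.21.

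The H3K4 group was larger and its values were smaller. Of 13 tested genes 11 had fitted values above 0 over both hairpins, where 7017 of all 15372 genes did, with a median of 0.18. At an unadjusted p under 0.05 there were 0, where 3.23% of all genes were higher and 4.44% lower. The highest value was that of KMT2C, an enhancer methyltransferase that is often mutated in breast cancer, at 134 and 144 CPM in the sh-TRC libraries, 196 and 200.4 CPM with sh-MIR100HG-1 and 205 and 148 CPM with sh-MIR100HG-2. The knockdown libraries all lay above the controls, with 1 of them just above. The log2FC was 0.43 (SE 0.20, unadjusted p = 0.0597, edgeR). KMT2C has near-identical copies elsewhere in the genome, so part of its reads may be shared with them.

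KMT2E and SETD7 had p-values under 0.05 with sh-MIR100HG-1 but not with sh-MIR100HG-2. KMT2E, a chromatin reader with a SET domain, was at 80.8 and 64.9 CPM in the sh-TRC libraries, 96.9 and 118 CPM with sh-MIR100HG-1 and 89.7 and 75.1 CPM with sh-MIR100HG-2. SETD7, which adds a single methyl group to H3K4 and to many other proteins, was at 122 and 86.9 CPM in the sh-TRC libraries, 148 and 186 CPM with sh-MIR100HG-1 and 104 and 128 CPM with sh-MIR100HG-2. For both genes the sh-MIR100HG-2 libraries overlapped the controls and the sh-MIR100HG-1 libraries did not. The direct difference between the hairpins was -0.38 (SE 0.23) on the log2 scale for KMT2E and -0.53 (SE 0.25) for SETD7, with unadjusted p-values of 0.133 and 0.0684 in edgeR's quasi-likelihood test, so neither was shown to differ between them. KMT2D, the enhancer paralogue of KMT2C, and the promoter enzymes KMT2A, KMT2B, SETD1A and SETD1B had log2FC values from -0.01 (SETD1A) to 0.25 (KMT2B). ASH1L, listed here although H3K36 is its best established site, was at 0.15, SMYD2, SMYD3 and SMYD5 at 0.14, 0.07 and 0.01, and SMYD4 at -0.15.

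In the H3K9 group 5 of 6 genes had fitted values above 0, where 7017 of all 15372 genes did, with a median of 0.19. Again 0 were at an unadjusted p under 0.05, where 3.23% of all genes were higher and 4.44% lower. EHMT1 and EHMT2 form a heterodimer that dimethylates H3K9, and their values went opposite ways. EHMT1 was at 71.7 and 77.5 CPM in the sh-TRC libraries, 88.7 and 85.4 CPM with sh-MIR100HG-1 and 94.7 and 105 CPM with sh-MIR100HG-2. EHMT2 was at 81.4 and 109.8 CPM, then 76.3 and 57.5 CPM, then 89.6 and 80.8 CPM. EHMT1 was above both controls in all 4 knockdown libraries, whereas EHMT2 overlapped them with sh-MIR100HG-2. The log2FC was 0.32 (SE 0.18) for EHMT1 and -0.34 (SE 0.21) for EHMT2. SUV39H1 and SETDB1, which trimethylate H3K9 in heterochromatin and at silenced repeats, were both at 0.23, SUV39H2 at 0.14 and SETDB2 at 0.11.

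PRC2 places the H3K27 mark through EZH2 or EZH1, each of which needs EED and SUZ12. Over both hairpins its 4 core genes had fitted log2FC values of 0.06 (EZH1), 0.13 (EZH2), 0.13 (SUZ12) and 0.14 (EED), all within 1 SE of 0. Behind these means the hairpins lay apart for EZH2 and SUZ12. EZH2 was at 74.5 and 72.3 CPM in the sh-TRC libraries, 100.2 and 90.1 CPM with sh-MIR100HG-1 and 73.4 and 61.3 CPM with sh-MIR100HG-2. SUZ12 was at 111 and 62.3 CPM, then 131 and 135 CPM, then 84.5 and 51.4 CPM. For both genes the sh-MIR100HG-1 libraries were above all others, and the SUZ12 controls differed from each other by 0.84 on the log2 scale.

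EED was at 43.9 and 50.1 CPM in the sh-TRC libraries, 44.7 and 57.7 CPM with sh-MIR100HG-1 and 49.7 and 55.7 CPM with sh-MIR100HG-2, with all groups overlapping. EZH1, the catalytic subunit of resting cells, was at 21.4 and 21.5 CPM, then 18.8 and 21.5 CPM, then 22.7 and 26.5 CPM. Per kilobase of exon EZH2 exceeded EZH1 in every library, by 5.37-fold and 5.20-fold in the controls, 8.22-fold and 6.47-fold with sh-MIR100HG-1 and 4.995-fold and 3.57-fold with sh-MIR100HG-2. This ratio was above both controls with the first hairpin and below both with the second.

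Most JmjC demethylases lay near the control level. Of the 13 JmjC genes 10 had fitted values above 0, where 7017 of all 15372 genes did, with a median of 0.10. KDM5B alone was at an unadjusted p under 0.05 (1 higher, background 3.23%, and 0 lower, background 4.44%). KDM5B, which removes methyl groups from H3K4 and is highly expressed in many breast cancers, was at 87.6 and 96.6 CPM in the sh-TRC libraries, 98.1 and 143 CPM with sh-MIR100HG-1 and 133 and 153 CPM with sh-MIR100HG-2. All 4 knockdown libraries were above the controls, 1 of them by little. The log2FC was 0.51 (SE 0.22, unadjusted p = 0.0425, edgeR).

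KDM6B, which removes methyl groups from H3K27, was at 38.0 and 36.1 CPM in the sh-TRC libraries, 47.7 and 37.9 CPM with sh-MIR100HG-1 and 75.0 and 48.2 CPM with sh-MIR100HG-2. Its lone p under 0.05 was with sh-MIR100HG-2, at a log2FC of 0.73 (SE 0.27, unadjusted p = 0.0250, edgeR), with replicates that lay far apart. Its X-linked relative KDM6A was at a log2FC of -0.09 over both hairpins. KDM7A had 0.66 (SE 0.35) and ranged from 14.1 CPM in a control to 41.6 CPM in a sh-MIR100HG-1 library, where the other replicate lay within the range of the controls. KDM8 had -0.66 (SE 0.40) at 1.02 to 3.98 CPM, the lowest fitted value of all members. The other 8 JmjC genes, KDM2A, KDM2B, KDM3B, KDM4A, KDM4B, KDM4C, KDM5A and KDM5C, lay between -0.05 and 0.24.

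Of the LSD enzymes, KDM1A, the demethylase of the CoREST complex, had a log2FC of 0.17 (SE 0.19), and KDM1B, which acts in gene bodies, one of -0.59 (SE 0.36, unadjusted p = 0.133, edgeR). KDM1B was at 22.02 and 16.1 CPM in the sh-TRC libraries, 16.8 and 9.40 CPM with sh-MIR100HG-1 and 16.5 and 7.81 CPM with sh-MIR100HG-2. Replicate 2 was the lower one in each group, and the groups overlapped. Among libraries of the same replicate number the control was the highest. With the replicate number as a block in the edgeR fit, KDM1B was lower at an unadjusted p under 0.05 over both hairpins and for sh-MIR100HG-2. In these fits 10.3% and 11.9% of all genes were under 0.05 in either direction.

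The direct comparison between the hairpins, sh-MIR100HG-2 over sh-MIR100HG-1, does not use the controls except for the shared estimate of spread. At an unadjusted p under 0.05, KMT5C was higher (1 member; background 3.34%) and EZH2 and SUZ12 were lower (2 members; background 6.12%). The difference was 0.88 (SE 0.35, unadjusted p = 0.0355) for KMT5C, -0.50 (SE 0.21, unadjusted p = 0.0433) for EZH2 and -0.97 (SE 0.33, unadjusted p = 0.0192) for SUZ12 on the log2 scale. EZH2 was no longer under 0.05 with the likelihood ratio test, RLE factors, no filter on low counts or GC offsets, nor when any library other than sh-MIR100HG-2 replicate 1 was left out. KMT5C was not without either sh-MIR100HG-1 library or without sh-MIR100HG-2 replicate 2, and SUZ12 was not without the latter. By edgeR's quasi-likelihood test 0 members and 0 of all genes passed at the adjusted threshold (background 0%), and the smallest adjusted p of a member was 0.509. Both sh-MIR100HG-2 libraries lay above both sh-MIR100HG-1 libraries for 17 members (33.3%; background 20.6%) and below for 11 (21.6%; background 23.3%).

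The direction of this difference followed base composition. Across the 51 members the Spearman correlation of the difference between hairpins with the GC content of the exons was 0.64, against 0.35 across all genes, as a description over genes of the same 6 libraries. The 26 members with a GC content up to 47.1% had a median difference of -0.14, and the 25 above it one of 0.20. SUZ12 lies at 38.3% GC, EZH2 at 45.1% and KMT5C at 64.3%. Libraries of the same group also differed with GC content, most in the control, where the members' difference between replicate 1 and replicate 2 had a correlation of -0.66 with it. With GC-dependent offsets in the fit the difference was -0.58 for SUZ12, -0.38 for EZH2 and 0.82 for KMT5C. The same offsets raised the number of members higher at an unadjusted p under 0.05 over both hairpins from 5 to 12. The share of all genes under 0.05, in either direction, rose as well, from 7.68% to 10.6%. The members' median log2FC went from 0.15 to 0.23, while the median of all genes moved from -0.04 to 0.06.

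**Figure D5:**
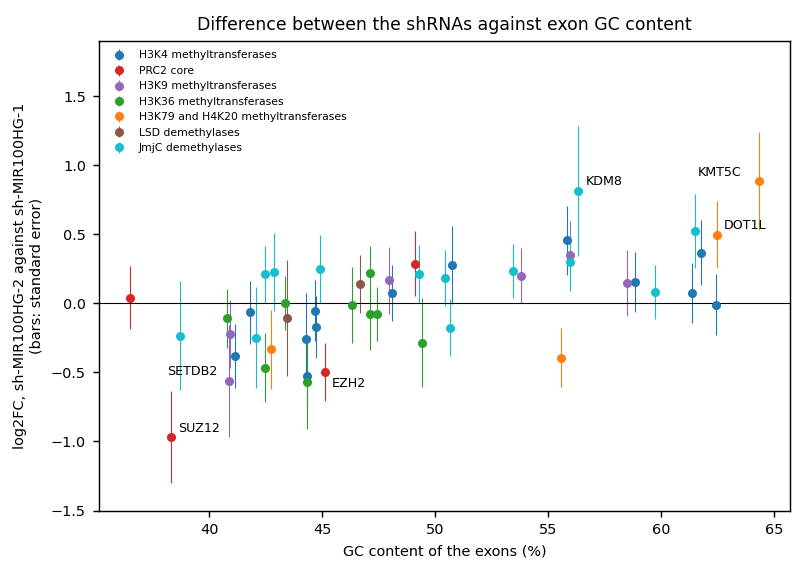
Difference between the hairpins (log2FC, positive where sh-MIR100HG-2 is higher, bars are standard errors) for 51 members against the GC content of their exons in percent, coloured by role. Members at low GC content, such as SUZ12 (38.3%), lie mostly below 0, and those at high GC content, such as KMT5C (64.3%), mostly above.

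Some proliferation genes were at lower values in the same comparison. Of 21 on the list, 17 had lower fitted values with sh-MIR100HG-2 than with sh-MIR100HG-1, where 7839 of all 15372 genes did, and the median was -0.07. None passed the adjusted threshold in edgeR's quasi-likelihood test, and the kinases CDK1 and TTK, the topoisomerase TOP2A and the proliferation marker MKI67 were lower at an unadjusted p under 0.05 (4 of 21; background 6.12%). CDK1 was at 133 and 81.4 CPM in the sh-TRC libraries, 123 and 144 CPM with sh-MIR100HG-1 and 67.8 and 55.1 CPM with sh-MIR100HG-2, so its group means stood in the same order as those of SUZ12. In bulk RNA fewer cycling cells and less RNA per cell cannot be told apart. The part of proliferation in the EZH2 and SUZ12 values was not tested.

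The partners of these enzymes were counted on fixed lists, over both hairpins against the control. Of 10 tested PRC2 accessory genes 2 were higher at an unadjusted p under 0.05 and 0 were lower, where 3.23% and 4.44% of all genes were. JARID2, which recruits PRC2 and modulates its activity, was at 77.2 and 76.7 CPM in the sh-TRC libraries, 100.2 and 123 CPM with sh-MIR100HG-1 and 111 and 128 CPM with sh-MIR100HG-2. MTF2, which brings PRC2 to CpG islands, was at 46.2 and 30.7 CPM, then 62.7 and 89.6 CPM, then 56.3 and 56.3 CPM. For both genes every knockdown library lay above both controls, with log2FC values of 0.59 (SE 0.19) and 0.77 (SE 0.25) and an adjusted p of 0.554 for each in edgeR's quasi-likelihood test. The 10 genes had a median of 0.04.

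Of 11 LSD1 complex partners 8 had fitted values below 0, where 54.4% of all genes did, and 1 was lower at an unadjusted p under 0.05, where 4.44% were. This was RCOR1, the CoREST scaffold that links KDM1A to nucleosomes, at 85.7 and 89.5 CPM in the sh-TRC libraries, 54.3 and 33.2 CPM with sh-MIR100HG-1 and 67.3 and 39.6 CPM with sh-MIR100HG-2. All 4 knockdown libraries lay below both controls, although replicate 2 of each hairpin was far below replicate 1. The log2FC was -0.86 (SE 0.27, adjusted p = 0.545 in edgeR's quasi-likelihood test). The lists of 14 COMPASS subunits that serve the KMT2 enzymes, 7 DOT1L partners, 12 H3K9 readers and 22 PRC1 subunits each held 0 genes at an unadjusted p under 0.05, with medians of 0.04, -0.04, 0.08 and 0.11. At that threshold 3.23% of all genes were higher and 4.44% lower. The DOT1L partners, which include the AF9 and AF10 genes MLLT3 and MLLT10, lay between -0.11 and 0.22, all below the value of DOT1L itself.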

How the data were processed

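RNA-seq of 6 MDA-MB-231 libraries was analysed, 2 for each of sh-TRC, sh-MIR100HG-1 and sh-MIR100HG-2, grouped by the sample titles. The authors deposited raw counts per gene, unnormalized, with exon lengths beside them. According to the methods they trimmed barcodes, mapped reads to GRCh37 with STAR and a lifted GENCODE annotation, and counted exon reads per gene with FeatureCounts. The submitters' processing notes name STAR 2.5.2a, and the methods name another version. Strand setting and treatment of multi-mapping reads are not given in the sources used here.

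Symbols were matched by gene ID for 26943 of 27745 genes. Genes with fewer than 5 counts in at least 3 of 6 libraries were removed, which left 15372. Depth was 43804736 to 64588388 counts per library. The common biological coefficient of variation was 27.8%. All 3 groups entered 1 fit of edgeR 4.0.16 (TMM, glmQLFit and glmQLFTest, R 4.3.3), with 3 residual degrees of freedom, and Benjamini-Hochberg adjustment took in all 15372 genes. The log2 CPM values of the heat map carry a pseudocount of 0.125 CPM. Standard errors were derived from the F statistics. GC content came from GRCh37 exon blocks.

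Members and lists were chosen with earlier results of these data known. Libraries are described one by one for members at an unadjusted p under 0.05 over both hairpins or between hairpins, for DOT1L and for the PRC2 core. The 5 highest and 5 lowest levels are also named. One marker gene on the lists is not reported here. KMT2C, KMT2E, SETD7, KDM6B, EHMT1, EHMT2 and KDM1B were added after their values were seen. Alternatives were the likelihood ratio test, the bias-adjusted fit, DESeq2 1.42.0, RLE factors, no filter, a replicate block, and each library left out, and, chosen after seeing the data, GC offsets and a crossed block.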

Additional observations from a re-analysis of the deposited data

How the results depend on the processing

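With 2 libraries per group, 1 library can decide a value, and counts were fewest for KDM8 and KDM4C. Over both hairpins, 0 members passed the adjusted threshold except with DESeq2 (1 member) or without the filter on low counts (2 members, DOT1L and KMT5C). For sh-MIR100HG-2 the likelihood ratio test called 2, DESeq2 3 and the unfiltered fit 2, and between hairpins the unfiltered fit called 1, SUZ12. The share of all genes called at the adjusted threshold in these fits is not given here, so these calls have no background beside them. Members at an unadjusted p under 0.05 numbered 12 with GC offsets over both hairpins (5 otherwise) and 8 for sh-MIR100HG-2 (5 otherwise). The share of all genes under 0.05 was then 10.6% (7.68% otherwise) and 12.8% (8.86% otherwise). Leaving out 1 library could change the number of members at that threshold in each comparison, and the share of all genes changed as well. The cause was not tested. GC offsets moved the median of all genes for sh-MIR100HG-2 from -0.04 to 0.10, and that of the members from 0.17 to 0.26.

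Replicate numbers did not pair the libraries alike in all groups. Over all genes, deviations from the group means correlated at -0.21 between sh-TRC and sh-MIR100HG-1 and at 0.02 between sh-TRC and sh-MIR100HG-2. Between the hairpins the correlation was 0.50. Across the members the same correlations were -0.22, 0.40 and 0.54. Whether libraries of the same number were handled together was not tested. With the replicate block, members at an unadjusted p under 0.05 numbered 11 for sh-MIR100HG-1 (6 otherwise), 6 over both hairpins, 6 for sh-MIR100HG-2 and 3 between hairpins. In the same order 9.24%, 10.3%, 11.9% and 13.1% of all genes were under 0.05. With this block 0 members passed the adjusted threshold. KDM1B was then lower at that unadjusted threshold over both hairpins and for sh-MIR100HG-2. With GC offsets and the replicate block the numbers of members were 14, 15, 13 and 8, where 10.5%, 15.1%, 18% and 12.2% of all genes were under 0.05. Crossing the 2 control numbers in the replicate block, without GC offsets, gave 10 members for sh-MIR100HG-1, where 10.8% of all genes were under 0.05.

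Signs of small log2FC values reversed when 1 library was left out. Over both hairpins EZH1 ranged from -0.00996 (without sh-MIR100HG-2 replicate 2) to 0.11, and SUZ12 from -0.23 (without sh-TRC replicate 2; -0.07 without sh-MIR100HG-2 replicate 1) to 0.61. For sh-MIR100HG-1 EZH1 ranged from -0.20 to 0.0056 (without replicate 1), and EED from -0.0811 (without replicate 2) to 0.30, with -0.13 under GC offsets and -0.0849 with the replicate block added. For sh-MIR100HG-2 SUZ12 ranged from -0.76 to 0.13 (without sh-TRC replicate 1). Between hairpins NSD2 ranged from -0.16 to 0.0014, KDM5B from -0.00018 to 0.56 and EED from -0.13 to 0.25 (-0.04 without sh-MIR100HG-2 replicate 2). The members' median level in the control was 7.20 CPM per kb with RLE factors and 7.02 to 7.05 with 1 control left out.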

Other observations

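Lysine and arginine methylation enzymes outside the families above were counted in the same way, over both hairpins against the control. Of 11 tested lysine enzymes of the PRDM, PHF, JMJD and related families 8 had fitted values above 0, where 7017 of all 15372 genes did. Their median log2FC was 0.24, and 2 were at an unadjusted p under 0.05, in opposite directions (background 3.23% higher and 4.44% lower). HR, the hairless corepressor with a JmjC domain, was at 3.70 and 4.60 CPM in the sh-TRC libraries, 1.64 and 0.0945 CPM with sh-MIR100HG-1 and 0.661 and 0.200 CPM with sh-MIR100HG-2. All knockdown libraries lay below both controls, at few counts, and the log2FC was -2.75 (SE 0.81, adjusted p = 0.506 in edgeR's quasi-likelihood test). JMJD6, a hydroxylase once described as an arginine demethylase, was at 38.9 and 37.1 CPM in the sh-TRC libraries, 42.7 and 59.7 CPM with sh-MIR100HG-1 and 51.1 and 63.8 CPM with sh-MIR100HG-2, all above the controls. Its log2FC was 0.51 (SE 0.22, unadjusted p = 0.0450, edgeR).

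Among 9 tested arginine methyltransferase genes the median log2FC was 0.06 and 1 gene was higher at an unadjusted p under 0.05 (background 3.23%). This was CARM1, which methylates histone H3 arginines as a coactivator, with a log2FC of 0.54 (SE 0.23, unadjusted p = 0.0494, edgeR). It was at 62.0 and 88.7 CPM in the sh-TRC libraries, 90.04 and 98.9 CPM with sh-MIR100HG-1 and 105 and 149 CPM with sh-MIR100HG-2, so all knockdown libraries lay above both controls, the lowest by little. Between the hairpins, 1 of 96 tested partner genes outside the proliferation list was higher and 3 were lower at an unadjusted p under 0.05, where 3.34% and 6.12% of all genes were. PCGF1, a subunit of variant PRC1, differed by 0.60 (SE 0.24) on the log2 scale, whereas CBX3, a reader of methylated H3K9, differed by -0.81 (SE 0.24), PSIP1, which tethers KMT2A complexes to chromatin, by -0.71 (SE 0.27) and the LSD1 partner ZMYM2 by -0.63 (SE 0.27).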
